A study of Mus musculus with 9 samples.

Results

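Chaperones and the genes of the unfolded protein response were compared between cultured mouse tracheal gland cells that carry a Lef-1 knock-in allele and cells without it. Members were chosen by gene symbol alone: heat shock protein genes, the Dnaj, Bag, Cct, Pdia, Ero1, Calr and Herpud families, and single genes such as Atf4, Atf6, Xbp1 and Ddit3. The rule found 100 of the 13336 genes in the expression table. By where their products are known to work, 48 were placed in the cytosol and nucleus, 8 in mitochondria and 29 in the endoplasmic reticulum (ER). A further 9 are sensors, transcription factors or targets of stress signalling. The last 6 were kept apart, because 3 of them (Hspg2, Hspbap1 and Hspb11) match only by their letters and are not chaperones, and 3 J-protein genes (Dnajc4, Dnajc25 and Dnajc27) were not assigned a location. Among protein-coding symbols of GENCODE M21 that match, 99 were in the table and 18 were not analysed here. Mean levels reached 1 TPM in both groups for 98 members (all but Hspa12a and Calr3) and 100 TPM for 37.

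Lef1KI libraries (n = 5, A to E) came from mice with the alleles ACTA2-CreERT2 and Lef-1KI, and WT libraries (n = 4, A, B, E and D) from mice with ACTA2-CreERT2 and ROSA-TG, so both groups carry the inducible Cre. This Cre is driven by the smooth muscle actin gene Acta2, which myoepithelial cells express, and tamoxifen was given daily for 5 days before harvest in both groups. Each library was a pool of 3 to 5 mice. Gland cells of both groups were expanded to passage 1 on laminin-rich conditioned plastic in airway medium with Y-27632 at 10 µM and with DMH-1, A83-01 and CHIR 99021 at 1 µM each. Lef1KI cells were sorted as GFP-negative and WT cells as GFP-positive, so gate and genotype change together and cannot be told apart. The sources used here do not give the age or strain background of the mice.

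Chaperones bind unfolded proteins and help them to fold. Cytosolic HSP70 works in cycles that J-proteins start and nucleotide exchange factors end, HSP90 acts on nearly folded clients such as kinases, and the ring-shaped TRiC complex encloses actin and tubulin. In the ER, where secreted and membrane proteins mature, unfolded protein is sensed by IRE1 (Ern1), PERK (Eif2ak3) and ATF6, which raise ER chaperones, disulfide enzymes and degradation factors through the transcription factors XBP1, ATF4 and ATF6.

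Levels are in TPM, which give each gene's part of the transcripts in a library on a common scale. Between 11863 and 12135 genes reached 1 TPM in Lef1KI libraries, and between 11465 and 11854 did in WT libraries. Lef1 itself lay between 139 and 312 TPM in Lef1KI libraries and between 0.38 and 0.55 TPM in WT libraries (log2 difference 7.23, SE 0.236, limma adjusted p 5.2e-08). Markers of basal and myoepithelial cells were abundant in both groups: 7 of 9 listed genes were measured (Cnn1 and Oxtr were not analysed here) and summed to 15528 to 17249 TPM in Lef1KI libraries and to 12057 to 17973 TPM in WT libraries, mostly of the keratins Krt5 and Krt14. Mylk was higher (difference 0.70, limma adjusted p 0.0448) and none was lower past the test. Acta2, whose promoter drives the Cre, averaged 62.3 ± 31.2 TPM in Lef1KI and 129 ± 41.0 TPM in WT (difference -1.13, adjusted p 0.0834). Markers of stromal cells were higher in Lef1KI, with 14 of 15 past the test and summed levels of 1613 to 4435 TPM, against 403 to 1102 TPM in WT libraries. Most of these sums was Mgp, at 2263 ± 911 TPM in Lef1KI and 583 ± 261 TPM in WT. Endothelial markers (5 of 8 higher) summed to 33.4 to 100.3 TPM in Lef1KI libraries and 18.0 to 27.9 TPM in WT libraries. The largest part on average was Egfl7, at 32.7 ± 15.9 TPM in Lef1KI and 13.9 ± 5.82 TPM in WT (limma adjusted p 0.112). Esam went the other way, at 2.15 ± 0.895 TPM in Lef1KI and 5.24 ± 4.10 TPM in WT (difference -0.74, limma adjusted p 0.321). Tek had a difference of 0.02 (limma adjusted p 0.926). Of 6 leukocyte markers 3 were measured (Ptprc, Laptm5 and Tyrobp were not analysed here), and their sum was 58.1 to 244 TPM in Lef1KI libraries against 111 to 259 TPM in WT libraries. Nearly all of that sum was Cd68, at 93.7 ± 82.1 TPM in Lef1KI and 180 ± 60.9 TPM in WT (difference -1.18, limma adjusted p 0.136). The other two were higher, Lyz2 at 7.96 ± 3.37 TPM in Lef1KI and 1.38 ± 1.16 TPM in WT, and Coro1a at 0.544 ± 0.160 TPM in Lef1KI and 0.130 ± 0.0956 TPM in WT. The calls of Mylk and Coro1a were lost under median centring (adjusted p 0.108 and 0.174). No defining marker of these lists that was measured was at 0 in every library, and the part of these cell types in the results was not tested. In bulk RNA, fewer cells of a type and less RNA per cell cannot be told apart.

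Transcripts of the 100 members made up between 1.58% and 1.91% of all TPM in Lef1KI libraries and between 1.51% and 1.76% in WT libraries. The summed pool thus overlapped between the groups. The sum over the 100 genes averaged 17537 ± 1305 TPM in Lef1KI libraries and 16196 ± 1181 TPM in WT libraries (SD, n = 5 and n = 4). Only Pdia5, an ER protein disulfide isomerase, and Dnajc21, a J-protein with a role in ribosome biogenesis, passed the test, both higher in Lef1KI, and none was lower. That is 2 of 100 members, where 7.97% of all 13336 genes passed in either direction, 6.73% higher and 1.24% lower (limma with Benjamini-Hochberg adjustment over all genes, adjusted p under 0.05). At an unadjusted p under 0.05, 16 members were higher and 1 (Hspa1a) was lower, 17 of 100 in all, where 23.8% of all genes had such a p, 18.7% higher and 5.06% lower.

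The median member difference, Lef1KI minus WT, was 0.16 on the log2(TPM + 1) scale. Differences were positive for 77 of 100 members, where 69.6% of all genes had a positive difference. Over all genes the median was 0.14, a shift that median centring of the libraries brought to -0.02 and trimmed-mean scaling to 0.01. Under those scalings the members' median was 0.00 and 0.01, close to the all-gene medians. Positive differences then numbered 50 and 51 of 100 members, and 6309 and 6781 of the 13336 genes. By class, the median difference was 0.12 for the cytosolic and nuclear chaperones, 0.13 for the mitochondrial, 0.17 for the ER and 0.28 for the stress-signalling genes, and under median centring the first pair turned to -0.04 and -0.03, the ER median was 0.01 and the stress-signalling median 0.12. Values of 6 members did not overlap between the groups and were higher in every Lef1KI library, where 10.0% of all genes did so. These were Dnajc21, Dnajc13, Pdia5, Hspa13, Dnajb14 and Dnajc1. No member was lower in every Lef1KI library, against 1.89% of all genes.

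**Figure D1:**
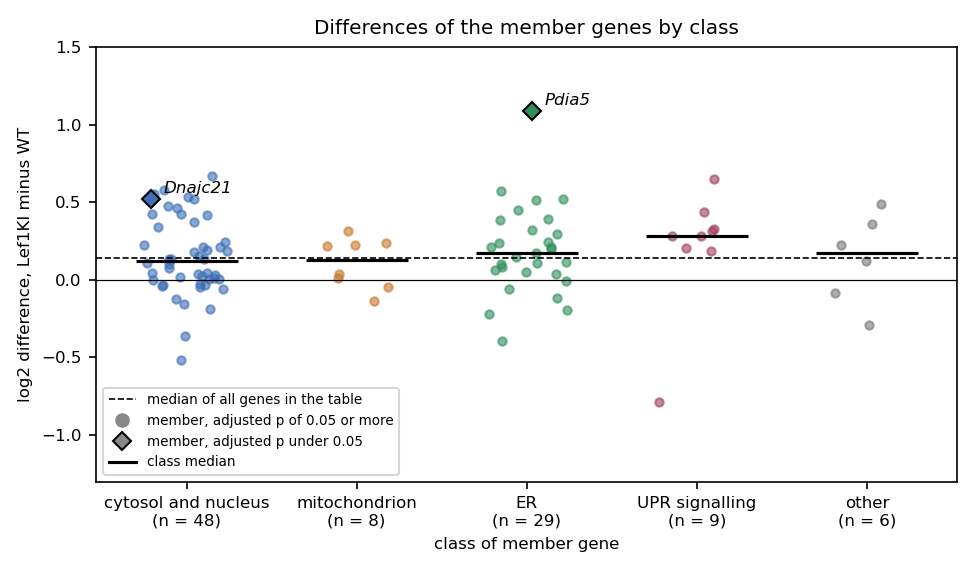
Log2 difference in TPM + 1, Lef1KI minus WT, for each of the 100 members, grouped by class, with the median of each class and of all 13336 genes. The class medians lie between 0.12 and 0.28 and the all-gene median is 0.14. The 2 members past the test, Pdia5 and Dnajc21, lie at 1.09 and 0.52.

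The 95% confidence interval of the difference lay within 1 unit of log2(TPM + 1) on either side of 0 for 88 of 100 members, where 82.2% of all genes had such an interval. For low genes such as Hspa12a, below 1 TPM in every library, this scale does not bound the ratio of TPM. The 12 exceptions were Pdia5 itself, the stress-signalling genes Chac1, Ddit3 and Trib3, the ER genes Dnajb14 and Ero1l, and the cytosolic genes Dnajc17, Dnajc7, Hspbp1, Dnaja4, Hsph1 and Hspb2. All 8 mitochondrial members had intervals within 1 unit.

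Pdia5 (ENSMUSG00000022844, chr16:35397312-35490873, minus strand, mm10) had 6.09, 12.2, 15.5, 10.8 and 11.1 TPM in Lef1KI A to E, against 4.71, 4.49, 3.58 and 5.39 TPM in WT A, B, E and D. Every Lef1KI library was above every WT library, and Lef1KI A came closest to WT. Pdia5 rose by 1.09 on the log2 scale (SE 0.231, 95% interval 0.58 to 1.60, limma adjusted p 0.0156), with means of 11.1 ± 3.38 TPM in Lef1KI and 4.54 ± 0.747 TPM in WT (SD, n = 5 and n = 4; ratio 2.45). The call was kept in 8 of 9 fits that left out 1 library each and was lost without WT E (adjusted p 0.0589). Pdia5 is a low-abundance isomerase: its relatives Pdia3, Pdia4 and Pdia6, which work in the same compartment, had mean levels above 100 TPM in both groups and differences of 0.11, 0.05 and 0.06 (limma adjusted p 0.467, 0.869 and 0.757). Outside the symbol rule, the disulfide isomerase Txndc5 was also higher (0.49, limma adjusted p 0.0291), though not under median centring (adjusted p 0.0912). P4hb and Txndc11, of the same list as Txndc5, had differences of 0.28 and 0.42 and did not pass (limma adjusted p 0.145 and 0.141).

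Dnajc21 (ENSMUSG00000044224, chr15:10446756-10470516, minus strand, mm10) had 25.1, 31.4, 31.5, 27.9 and 34.7 TPM in Lef1KI A to E, against 20.2, 20.4, 20.5 and 21.2 TPM in WT A, B, E and D. The groups did not overlap, and the WT libraries lay closer to each other than the Lef1KI libraries did. Dnajc21 rose by 0.52 on the log2 scale (SE 0.121, 95% interval 0.25 to 0.79, limma adjusted p 0.0241), with means of 30.1 ± 3.70 TPM in Lef1KI and 20.6 ± 0.469 TPM in WT (ratio 1.46). The call was lost with median centring (0.36, adjusted p 0.0878) and with trimmed-mean scaling (0.36, adjusted p 0.0622). It was kept in 4 of the 9 fits without 1 library (those without Lef1KI A, D or E or WT A).

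**Figure D2:**
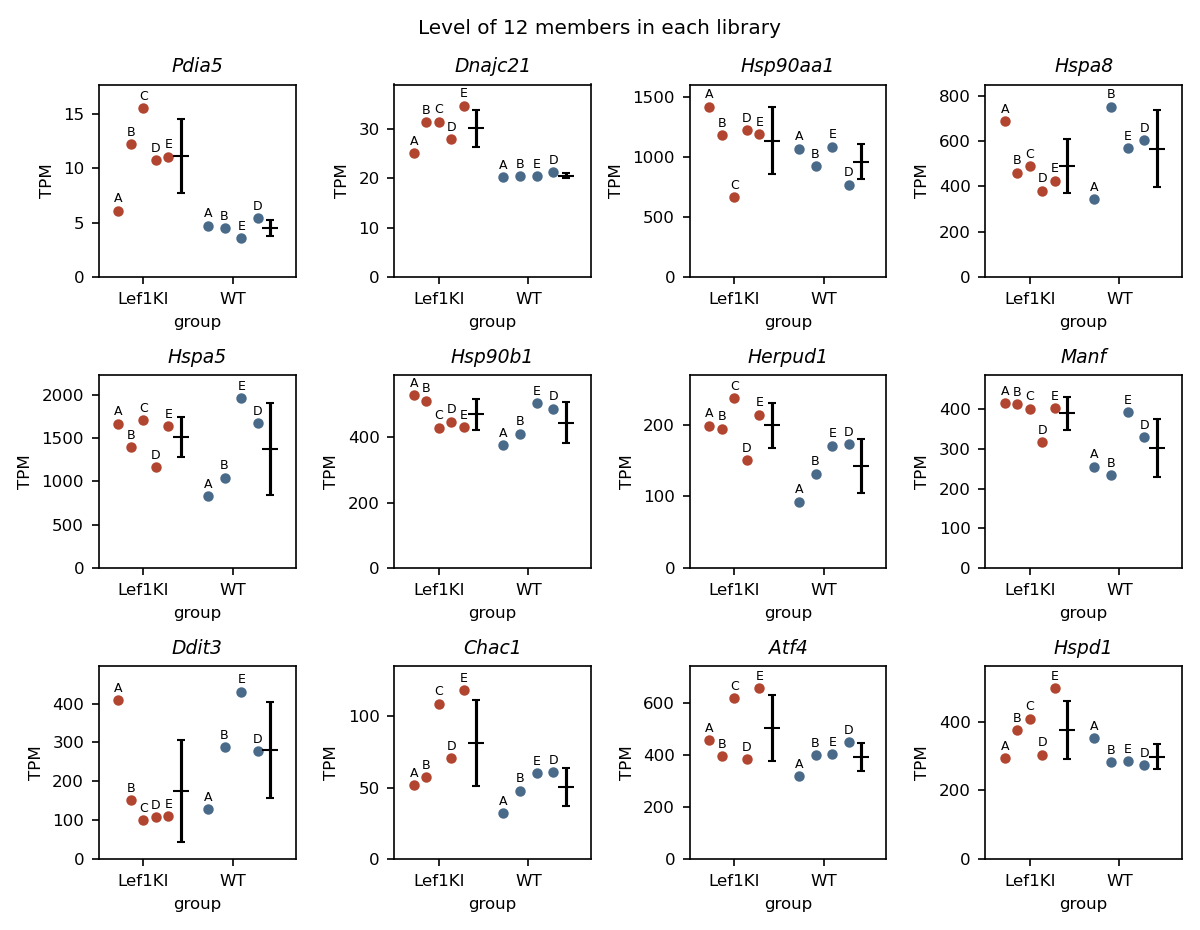
TPM of selected members, 1 panel each on linear axes from 0, Lef1KI left of WT, with a lettered point for each library and a black mark and bar for the group mean ± SD. Pdia5 and Dnajc21 do not overlap between the groups, whereas Hspa5 and Ddit3 spread widely within a group.

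Among J-proteins of the cytosol and nucleus, which hand clients to HSP70, 14 of 17 differences were positive (median 0.15) and Dnajc21 alone passed. Over all genes 69.6% of differences were positive, and under median centring 8 of these 17 were. Dnajc13, a J-protein of endosomes, had 15.8, 15.9, 22.0, 21.1 and 20.6 TPM in Lef1KI A to E and 9.52, 11.5, 14.7 and 14.4 TPM in WT A, B, E and D. The groups did not overlap, and the difference of 0.58 missed the threshold (SE 0.171, limma adjusted p 0.0678). Dnajc17, a nuclear J-protein, had 9.93, 12.5, 16.1, 17.1 and 17.3 TPM in Lef1KI A to E and 7.31, 6.96, 11.9 and 8.96 TPM in WT libraries, with WT E above Lef1KI A (difference 0.67, SE 0.208, adjusted p 0.0779). Dnajb1, the stress-inducible partner of HSP70, had 66.0 to 97.2 TPM in Lef1KI libraries and 73.5 to 106 TPM in WT libraries. Its difference was -0.06 (adjusted p 0.823).

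The cytosolic HSP90 genes were among the most abundant members, and neither passed. Hsp90aa1, the inducible form, had 1422, 1181, 668, 1224 and 1189.8 TPM in Lef1KI A to E and 1071, 923, 1087 and 771 TPM in WT A, B, E and D (difference 0.21, SE 0.206, limma adjusted p 0.551). Lef1KI C was the lowest of all 9 libraries, so the groups overlapped. Hsp90ab1, the constitutive form, had 1186 to 1381 TPM in Lef1KI libraries and 1040.3 to 1409 TPM in WT libraries, a difference of 0.14 (adjusted p 0.475).

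HSP70 genes of the cytosol had a median difference of -0.07 over 6 members. Hspa8, the constitutive HSP70, had 687, 461, 489.6, 381 and 425 TPM in Lef1KI A to E and 343, 752, 568 and 604 TPM in WT A, B, E and D. The WT range enclosed the Lef1KI range, and the difference was -0.19 (SE 0.227, limma adjusted p 0.629). Hspa1a and Hspa1b, the heat-inducible HSP70 genes, are near-identical copies between which reads can be split in an uncertain way. Hspa1a alone averaged 8.24 ± 1.59 TPM in Lef1KI and 10.8 ± 0.802 TPM in WT (difference -0.36, unadjusted limma p 0.0419, adjusted p 0.194). Their sum was 72.8, 70.7, 49.5, 62.6 and 47.1 TPM in Lef1KI A to E and 64.0, 56.9, 62.9 and 63.7 TPM in WT A, B, E and D, which averaged 60.6 ± 11.9 TPM in Lef1KI and 61.9 ± 3.35 TPM in WT.

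HSP110 proteins exchange the nucleotide of HSP70. Hsph1 had 14.1, 19.0, 44.6, 22.9 and 32.4 TPM in Lef1KI A to E and 14.9, 20.5, 14.8 and 17.9 TPM in WT A, B, E and D; Lef1KI C and E stood highest, and the difference of 0.52 did not pass (SE 0.285, limma adjusted p 0.294). The 7 BAG and other exchange factors had a median of 0.04 and none passed, nor did any at an unadjusted p under 0.05. Hspb1 (HSP27), a small heat shock protein that binds unfolded clients without ATP, was the most abundant cytosolic member at 1821 ± 198 TPM in Lef1KI and 1779 ± 122 TPM in WT (difference 0.03, adjusted p 0.890). Hspb8, the small heat shock protein that works with Bag3, averaged 238 ± 41.3 TPM in Lef1KI and 187 ± 28.6 TPM in WT (difference 0.34, adjusted p 0.202).

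Subunits of TRiC, which fold actin and tubulin, had differences between -0.04 and 0.23 in all 8 genes (median 0.06), and none passed, adjusted or unadjusted. Tcp1 had the lowest difference, -0.04 (limma adjusted p 0.826). Cct6a had the largest difference, 0.23, with 246, 299, 342, 248 and 445 TPM in Lef1KI A to E and 341, 260.2, 252 and 213 TPM in WT A, B, E and D (limma adjusted p 0.484). The 8 genes shared an order of libraries within each group: Lef1KI E was the highest Lef1KI library for 8 of 8 (35.7% of all genes), and WT A was the highest WT library for 7 of 8 (27.4% of all genes). Their summed level was 2829 TPM in Lef1KI E, against 1951 to 2287 TPM in the other Lef1KI libraries, and 2408 TPM in WT A, against 2001 to 2175 TPM in the other WT libraries.

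In mitochondria none of 8 members passed, and none had an unadjusted limma p under 0.05. Hspd1 (HSP60), which forms the folding chamber of the matrix, had 293, 375, 409, 303 and 497 TPM in Lef1KI A to E and 352, 281, 285 and 274 TPM in WT A, B, E and D (difference 0.31, SE 0.160, limma adjusted p 0.262). Hspe1 (HSP10), the lid of that chamber, had 312, 417, 438, 362 and 463 TPM in Lef1KI A to E and 434, 322, 304 and 301 TPM in WT libraries (difference 0.23, adjusted p 0.371). In both genes WT A lay inside the Lef1KI range and the other 3 WT libraries lay below it or at its low end. The gene models of Hspd1 and Hspe1 overlap on opposite strands of chromosome 1, and the sources used here do not say whether strand was used in counting. Hspa9, the mitochondrial HSP70, had 524 to 751 TPM in Lef1KI libraries and 501 to 543 TPM in WT libraries (difference 0.24, adjusted p 0.251). The 5 mitochondrial J-proteins had a median difference of 0.01.

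In the ER, Pdia5 was the only one of 29 members to pass, and 7 members, all higher, had an unadjusted limma p under 0.05, where 18.7% of all genes were higher at that p. Hspa5 (BiP), the HSP70 of the ER and the chaperone that holds the stress sensors inactive, had 1669, 1399, 1712, 1168 and 1641 TPM in Lef1KI A to E and 828, 1045, 1965 and 1670.4 TPM in WT A, B, E and D. WT held both the lowest and the highest libraries, and all 5 Lef1KI libraries lay between them. The means were 1518 ± 230.4 TPM in Lef1KI and 1377 ± 530 TPM in WT, and the difference was 0.21 (SE 0.241, 95% interval -0.32 to 0.74, limma adjusted p 0.610). Without WT A it was -0.01.

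Hsp90b1 (GRP94), the HSP90 of the ER, had 527, 511, 429, 447 and 431 TPM in Lef1KI A to E and 375, 410.5, 504 and 487 TPM in WT A, B, E and D (difference 0.08, limma adjusted p 0.686). Hyou1 (GRP170), the exchange factor of BiP, had 99.1 to 138 TPM in Lef1KI libraries and 75.4 to 129 TPM in WT libraries (difference 0.15, adjusted p 0.607). Both differences turned negative under median centring, and the groups overlapped in both genes. Hspa13, an HSP70-like protein of microsomes, had 12.0, 12.0, 15.0, 12.6 and 12.0 TPM in Lef1KI A to E and 9.25, 8.68, 8.33 and 9.99 TPM in WT A, B, E and D. Here every Lef1KI library was above every WT library, and the difference of 0.45 missed the threshold (SE 0.133, adjusted p 0.0683).

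Lectin chaperones fold glycoproteins, and disulfide enzymes form and rearrange disulfide bonds. Calr (calreticulin) had 1237, 899, 819, 846 and 768 TPM in Lef1KI A to E and 756, 928, 1319 and 1207 TPM in WT A, B, E and D (difference -0.19, limma adjusted p 0.551), and Canx (calnexin) had 394 to 446 TPM in Lef1KI libraries and 375 to 411 TPM in WT libraries (difference 0.12, adjusted p 0.411). Ero1l, the oxidase that recharges the disulfide isomerases, had 122 to 264 TPM in Lef1KI libraries and 89.1 to 177 TPM in WT libraries (difference 0.52, adjusted p 0.233), while its paralog Ero1lb, with 1.55 to 2.61 TPM in Lef1KI libraries and 1.83 to 4.13 TPM in WT libraries, had a difference of -0.39 (adjusted p 0.239). The paralogs thus had differences of opposite sign, and neither passed.

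Genes for ER-associated degradation, which removes misfolded protein, had positive differences in 3 of 3 members, where 69.6% of all genes did. Herpud1, a scaffold of the degradation complex, had 198, 194, 237, 151 and 214 TPM in Lef1KI A to E and 92.7, 132, 171 and 172 TPM in WT A, B, E and D. Lef1KI D lay among the WT values, and the difference of 0.51 had an unadjusted limma p of 0.0228 and an adjusted p of 0.141. Manf, a secreted factor induced by ER stress, had 415, 413, 401, 317 and 402 TPM in Lef1KI A to E and 255, 234, 393 and 329 TPM in WT A, B, E and D (difference 0.39, adjusted p 0.169). Creld2, also induced by ER stress, had 77.1, 44.5, 37.1, 45.9 and 40.8 TPM in Lef1KI A to E and 36.5, 52.8, 67.2 and 72.5 TPM in WT A, B, E and D (difference -0.22, adjusted p 0.592). Manf was thus higher in 4 of 5 Lef1KI libraries than in any WT library, and Creld2 was so in 1 of 5. Sdf2l1, grouped with Manf and Creld2, had a difference of 0.03 (limma adjusted p 0.925). The ER J-protein gene Dnajb9 had a difference of -0.11 (limma adjusted p 0.726).

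Of the 9 stress-signalling genes none passed, and 1 (Chac1) had an unadjusted limma p under 0.05. The 3 sensors had differences of 0.28 (Atf6), 0.32 (Ern1) and 0.21 (Eif2ak3), with adjusted p of 0.273, 0.360 and 0.380. Atf4, the transcription factor whose translation rises when eIF2-alpha is phosphorylated, had 457, 395, 616, 385 and 655 TPM in Lef1KI A to E and 318, 398, 404 and 448 TPM in WT A, B, E and D (difference 0.33, adjusted p 0.291). Lef1KI C and E were the highest, and B and D lay within the WT range.

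The 3 members grouped as stress targets, Chac1, Trib3 and Asns, had positive differences, as did 69.6% of all genes. Chac1, which degrades glutathione, had 51.8, 57.2, 109, 70.7 and 118 TPM in Lef1KI A to E and 32.1, 47.9, 59.9 and 60.6 TPM in WT A, B, E and D (difference 0.65, 95% interval 0.04 to 1.26, unadjusted limma p 0.0377, adjusted p 0.184). Trib3, a pseudokinase, had 143, 150.3, 284, 159 and 268 TPM in Lef1KI A to E and 79.1, 138, 169 and 219.8 TPM in WT libraries (difference 0.43, adjusted p 0.400). As for Atf4, Lef1KI C and E were highest for both genes. Asns, the asparagine synthetase, had 246 to 389.9 TPM in Lef1KI libraries and 247 to 289.8 TPM in WT libraries (difference 0.28, adjusted p 0.215).

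Ddit3 (CHOP), the pro-apoptotic transcription factor downstream of ATF4, had the lowest difference of any member. It had 408, 151, 99.8, 108 and 110.5 TPM in Lef1KI A to E and 128, 288, 431 and 278 TPM in WT A, B, E and D. Lef1KI A stood with WT B, E and D, and WT A stood with the other Lef1KI libraries. The means were 175 ± 132 TPM in Lef1KI and 281 ± 124 TPM in WT, and the difference of -0.79 did not pass (SE 0.435, 95% interval -1.75 to 0.17, limma adjusted p 0.296). Without Lef1KI A it was -1.15 and passed (adjusted p 0.0412). Ddit3 thus had the opposite sign to Atf4, Chac1 and Trib3; this difference between genes was not tested.

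**Figure D3:**
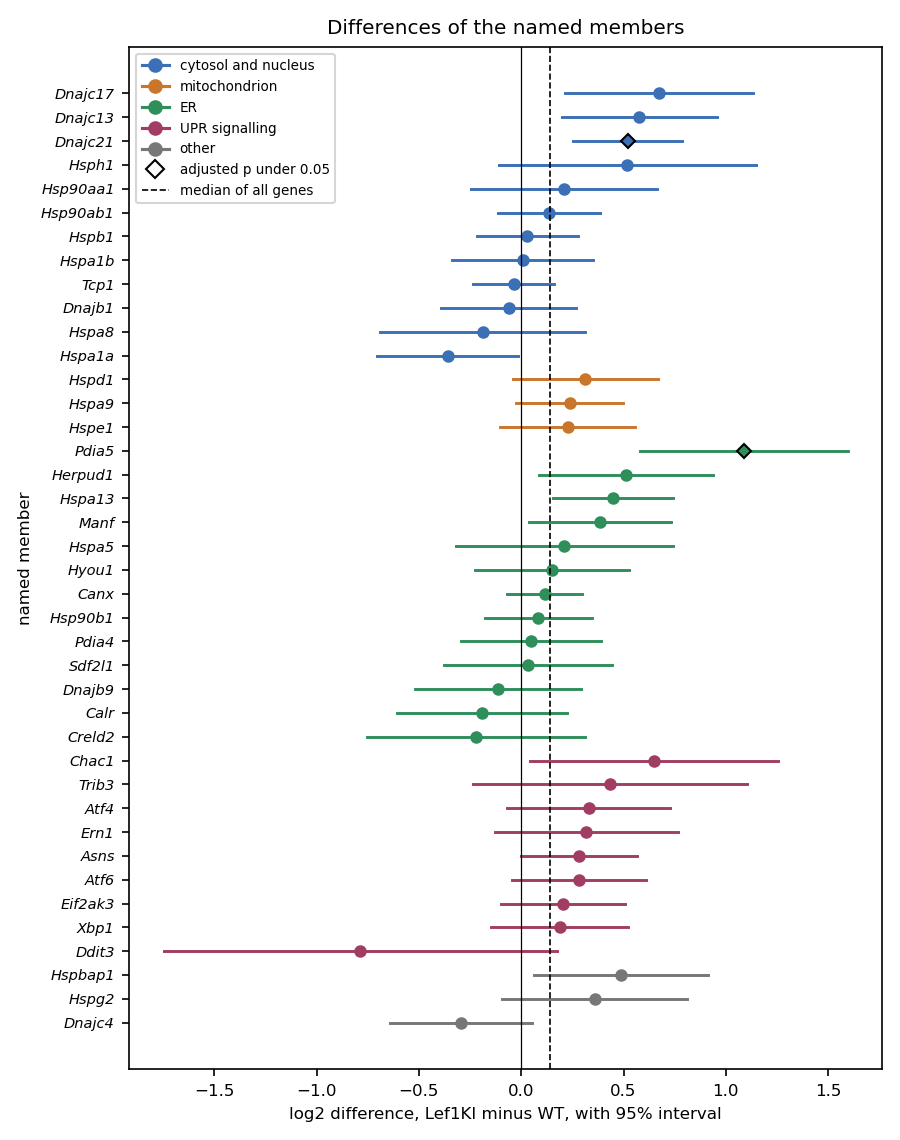
Log2 difference in TPM + 1, Lef1KI minus WT, with 95% confidence interval, for the named members by class. Intervals of Pdia5 (0.58 to 1.60) and Dnajc21 (0.25 to 0.79) exclude 0 and pass the adjusted test. Ddit3 (-1.75 to 0.17) has the widest interval of the named members.

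ER and stress-signalling genes shared an order of libraries within WT. Among ER members without ties in WT, WT A was the lowest WT library for 20 of 28, where it was lowest for 44.8% of all genes, and WT A and B were the highest for none. WT D was the highest for 17 and WT E for 11, where they were highest for 39.9% and 19.2% of all genes. For the 9 stress-signalling genes WT A was lowest in 8 and WT D highest in 7, beside the same all-gene shares. The 29 ER members summed to 6284, 5500.3, 5748, 4790 and 5623 TPM in Lef1KI A to E and to 3970.3, 4498, 6481 and 5961 TPM in WT A, B, E and D, so that 2 WT libraries lay below and 1 above the whole Lef1KI range. In Lef1KI, library A was highest for 14 of 29 ER members, where it was highest for 15.3% of all genes.

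This order was seen in members of unlike function. Sel1l, a subunit of the degradation ligase, had 113, 88.6, 108, 88.7 and 105 TPM in Lef1KI A to E and 50.3, 80.2, 111 and 123 TPM in WT A, B, E and D. The signalling gene Xbp1 had 144, 112, 128, 121 and 106 TPM in Lef1KI A to E and 82.1, 96.4, 127 and 128 TPM in WT A, B, E and D (difference 0.19, limma adjusted p 0.469). In both, WT A and B were below every Lef1KI library and WT E and D were not. The median SD of log2(TPM + 1) among libraries was 0.18 in Lef1KI and 0.25 in WT for the ER members, and 0.24 in Lef1KI and 0.17 in WT for the cytosolic and nuclear members. Over all genes it was 0.26 in Lef1KI and 0.22 in WT. The sources used here give no date or batch to set beside the library order, and members of a class are not independent of each other.

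**Figure D4:**
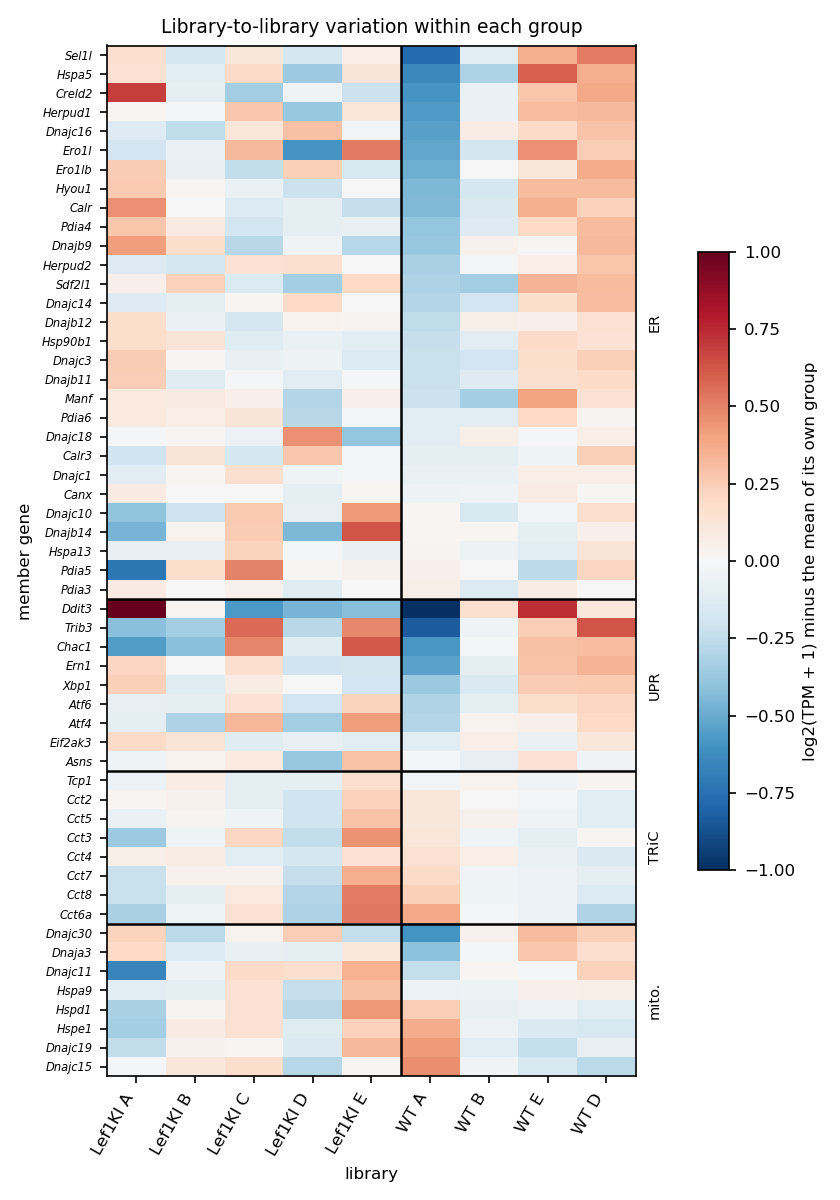
Heat map of each gene's log2(TPM + 1) value minus the mean of its own group, with libraries as columns (Lef1KI left of WT) and ER, stress-signalling, TRiC and mitochondrial genes as blocks, ordered within a block by the value in WT A; colours saturate at 1 on either side of 0. Most ER and stress-signalling genes are below their group mean in WT A and above it in WT E and D, and the 8 TRiC genes are highest of their group in Lef1KI E.

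Promoter sequence was read for known elements of stress responses, and any link to that library order was not tested. The elements are defined from stress-response genes, so finding them among ER members is background and not a result of these data. RefSeq promoters on GRCm38.p6, read here as the 250 bases before each start site, were matched for 82 of 100 members, 23 of them ER members. The ER stress response element, which ATF6 with NF-Y is known to bind, was searched on both strands as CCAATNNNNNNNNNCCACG. It was found in 7 of the 23 ER members (Calr, Canx, Creld2, Dnajc3, Hsp90b1, Hspa5 and Pdia6) and in none of the other matched members. The ER members Hyou1, Manf, Hspa13, Ero1l, Ero1lb and Dnajc18 had no matched promoter and were not searched. Over all 27025 genes with a promoter, 0.130% hold it. Matches are shown with the fixed ends of the element in capitals and the 9 free bases in lower case, read along the element's own strand; those of Hspa5 (chr2:34772025-34772043, plus strand), Canx (chr11:50325800-50325818, minus strand), Dnajc3 (chr14:118937827-118937845, plus strand) and Pdia6 (chr12:17266491-17266509, plus strand) run with the gene, and those of Calr (chr8:84847075-84847093, plus strand) and Creld2 (chr15:88819520-88819538, minus strand) run against it.
Hspa5: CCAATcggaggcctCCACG
Canx: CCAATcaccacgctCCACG
Dnajc3: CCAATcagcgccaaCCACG
Pdia6: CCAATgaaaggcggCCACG
Calr: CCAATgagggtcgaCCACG
Creld2: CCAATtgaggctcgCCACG

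Hsp90b1 holds 2 matches facing opposite ways. Its promoter (chr10:86705445-86705694, minus strand) and that of Hspa5 (chr2:34771840-34772089, plus strand) are given whole, since these are the HSP90 and HSP70 of the ER, with each match in capitals. The Pdia5 promoter (chr16:35490874-35491123, minus strand) is given beside them as the ER member that rose; it holds no match and so has no capitals. All run 5′ to 3′ along the gene and end at the base before the start site.
Hspa5: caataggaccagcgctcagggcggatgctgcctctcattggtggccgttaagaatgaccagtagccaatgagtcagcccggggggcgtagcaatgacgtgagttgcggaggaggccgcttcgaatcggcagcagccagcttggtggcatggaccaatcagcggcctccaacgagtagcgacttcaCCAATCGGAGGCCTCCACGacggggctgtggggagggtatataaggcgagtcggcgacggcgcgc
Hsp90b1: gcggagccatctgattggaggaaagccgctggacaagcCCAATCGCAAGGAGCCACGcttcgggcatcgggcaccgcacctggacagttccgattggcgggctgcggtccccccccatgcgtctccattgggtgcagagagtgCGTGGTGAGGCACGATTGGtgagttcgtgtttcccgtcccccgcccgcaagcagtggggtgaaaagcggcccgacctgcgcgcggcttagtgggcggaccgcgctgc
Pdia5: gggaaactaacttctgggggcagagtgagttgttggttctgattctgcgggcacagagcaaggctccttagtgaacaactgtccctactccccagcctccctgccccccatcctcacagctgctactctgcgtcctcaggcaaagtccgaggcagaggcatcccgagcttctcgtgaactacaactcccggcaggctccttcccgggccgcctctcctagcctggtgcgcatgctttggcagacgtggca

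The 7 genes with the element had differences between -0.22 and 0.24 (median 0.08), and none passed the limma test. In WT, library A was lowest for 6 of 7 (Pdia6 was lowest in WT B), as for most ER members. WT E was highest for 5 of 7 and WT D for 2, whereas over all ER members WT D was highest more often than WT E. Neither Pdia5 nor Dnajc21 holds this element or any of the other 3 searched on both strands. The letters TGACGTGG, an element bound by XBP1 and ATF6, were found in Dnajc25 alone of the matched members (0.603% of all genes with a promoter). The ATF4 element, searched as TGATGNAA, was found in 4 of the 82 matched members, where 3.91% of all genes with a promoter hold it. These were Asns, Chac1, Herpud1 and Hspa14, whose differences were between 0.28 and 0.65 with none past the test. Of all genes in the expression table, 69.6% had a positive difference, and a link between this element and the differences was not tested. The heat shock element, searched as GAANNTTCNNGAA or TTCNNGAANNTTC, was found in Dnajb6, Hspd1 and Hspe1 (0.514% of all genes with a promoter). The gene models of Hspd1 and Hspe1 overlap at their start ends, and whether their matches are the same bases was not checked. Hspa1a, Hspa1b, Dnajb1, Hsph1 and Hspb1 had no match, and Hsp90aa1, Hsp90ab1 and Hspa8 were not among the matched members. Only exact letters within 250 bases were searched, so a gene without a match may still hold the element. The XBP1 element ends in the reverse complement of the last letters of the ER stress response element, so these can overlap, as can the heat shock forms.

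Further genes of these pathways, outside the symbol rule, were read from lists. Of 28 measured genes of ER stress and ER-associated degradation, 6 were higher (6.73% of all genes), none was lower and the median difference was 0.35, beside 0.14 for all genes. At an unadjusted p under 0.05, 14 of the 28 were higher, where 18.7% of all genes were. Atf3, a stress-induced transcription factor, had 80.1, 99.9, 121, 127 and 112 TPM in Lef1KI A to E and 67.2, 61.2, 61.4 and 68.2 TPM in WT A, B, E and D, and rose by 0.72 (SE 0.136, limma adjusted p 0.00889). All Lef1KI libraries lay above all WT libraries, and Atf3 passed in each of the 9 fits without 1 library and under median centring (adjusted p 0.0209). The others were Sec24d, a COPII coat subunit (difference 0.72, adjusted p 0.0229), Cebpb, a transcription factor (0.60, 0.0266), Sec61b of the ER translocon (0.52, 0.0303), Txndc5, a disulfide isomerase (0.49, 0.0291), and Vimp, which encodes selenoprotein S of the degradation complex (0.45, 0.0421). These 5 did not pass under median centring, and each was lost in at least 4 of the 9 fits without 1 library.

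None of the other lists had a gene past the limma test. Of 18 HSF1 and HSP90 cofactor genes 4 were higher at an unadjusted p under 0.05 (median difference 0.22), of 15 genes of mitochondrial import and proteolysis 4 were (0.21), and of 6 prefoldin subunits, which deliver clients to TRiC, 1 was (0.13); 18.7% of all genes were higher at that p. The mitochondrial stress factor Atf5 averaged 133 ± 39.4 TPM in Lef1KI and 78.1 ± 20.5 TPM in WT (difference 0.74, adjusted p 0.0932). Lonp1, the protease of the mitochondrial matrix, averaged 151 ± 31.8 TPM in Lef1KI and 106 ± 18.2 TPM in WT (difference 0.50, adjusted p 0.111).

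The 6 members kept apart did not pass either. Hspg2, which encodes the basement membrane protein perlecan, had 22.8, 28.9, 48.5, 33.0 and 28.1 TPM in Lef1KI A to E and 29.4, 26.0, 22.8 and 19.4 TPM in WT A, B, E and D (difference 0.36, limma adjusted p 0.309). Lef1KI C stood highest and the rest overlapped. Hspbap1, a protein that binds HSP27, had the only unadjusted p under 0.05 among them (difference 0.49, adjusted p 0.158), and Dnajc4 had a difference of -0.29 (adjusted p 0.283).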

How the data were processed

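The authors deposited 1 table of log2(TPM + 1) values for 13336 genes in 9 libraries, made with RSEM on mm10 per the submitters' processing notes, from stranded mRNA libraries per the labels' protocols; the sources used here do not give the aligner, the annotation or the version of RSEM. Back-transformed values under 50 TPM came out in whole hundredths in 100.0% of cases (tolerance 0.01 of a hundredth). From the values, the table keeps genes whose mean reached 3 SD in at least 1 group (lowest 3.002), which favours genes with little spread; 2 members were below this in Lef1KI. TPM keeps no read counts, so depth is unknown and the error given is the spread between libraries. The labels state RNA integrity numbers above 10, where that scale ends.

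Groups were compared on the deposited log2 values with limma 3.58.1 in R 4.3.3 (intensity trend, group as the only term), two-sided, with Benjamini-Hochberg adjustment over all 13336 genes and a threshold of 0.05. A positive difference is higher in Lef1KI; with a pseudocount of 1, changes of low genes are understated. "Rose" and "higher" of a tested gene mean an adjusted p under 0.05 unless an unadjusted p is named. In simulated data of this size, 79% of genes changed by 1 log2 unit and 99% of those changed by 2 were recovered. The changed genes were drawn from the better expressed ones, with independent normal noise. Changes under 1 log2 unit, as most members show, were not simulated. For Lef1, an exact permutation test (two-sided) gave p 0.0159, the smallest that 126 splits allow.

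Columns carry letters that nothing ties to the labels' replicate numbers, so columns were assigned to groups only. Library pairs shared exactly equal values above 0 for at most 71 genes. Each library is a pool of mice, so p-values weigh a difference against the spread between pooled libraries, not between single mice. Named were members past the threshold, the 3 of smallest adjusted p in each class and a list of well-known chaperone and stress genes; Dnajb14, Dnajc1, Hspb8, Ero1l, Ero1lb, Sel1l, Cct6a and the other genes outside that rule were chosen after their values were seen. The members, classes and gene lists were chosen with earlier results of these data known. Positions are from GENCODE M21 on mm10, and promoters from RefSeq on GRCm38.p6. Alternatives were median centring, trimmed-mean (TMM) scaling of the back-transformed values, a pseudocount of 0.1, a filter at 1 TPM, limma without the trend or with a robust prior, a replicate block, and leaving out each library.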

Additional observations from a re-analysis of the deposited data

Results flagged for a closer look

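In 9 of 200 pairs of a member and a group, 1 library stood apart from the rest of its group by Dixon's ratio at the 95% level, and chance alone gives about 1 in 20. In Lef1KI, Creld2 was highest in library A (77.11 TPM, others 37.1 to 45.9 TPM), Hspa13 was highest in C (15.02 TPM, others 12.0 to 12.6 TPM), Hsp90aa1 was lowest in C (667.67 TPM, others 1181 to 1422 TPM) and Manf was lowest in D (316.77 TPM, others 401 to 415 TPM). In WT, library A was highest for Bag1 (140.71 TPM, others 116 to 119 TPM) and Hspd1 (352.23 TPM, others 274 to 285 TPM) and lowest for Dnaja2 (77.26 TPM, others 96.7 to 97.3 TPM). WT B was lowest for Hspa14 (30.75 TPM, others 34.4 to 34.9 TPM), and WT D was highest for Calr3 (0.98 TPM, others 0.57 to 0.63 TPM). The 2 members that rose, Pdia5 and Dnajc21, are not among them.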

How the results depend on the processing

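Of the 100 members 2 passed in the fit reported, 1 under median centring or trimmed-mean scaling (Pdia5), 3 without the intensity trend (Hspa13 added, adjusted p 0.0367) and 0 to 7 when 1 library was left out. The 0 was without WT E and the 7 without Lef1KI A, where Dnajc21, Dnajc13, Dnajc17, Hspbp1 and Pdia5 were higher and Dnaja4 and Ddit3 lower; without Lef1KI B, Lef1KI C, WT B or WT D it was 1. By class, leaving out a library gave 0 to 5 calls of 48 cytosolic and nuclear members (0 under either scaling), 0 of 8 mitochondrial, 0 to 1 of 29 ER (2 without the trend) and 0 to 1 of 9 stress-signalling members. Over all genes the count of 1063 was 1686 when Lef1KI A was left out, 643 for WT B and 628 for WT E. Of calls over all genes 84.5% were higher in Lef1KI, against 64.6% under median centring and 679 higher and 279 lower under trimmed-mean scaling. A filter at 1 TPM, a pseudocount of 0.1 and a robust prior changed no sign and no call among 40 named members. The cause of these changes was not tested.

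Among the 40 named members, 8 small differences changed sign with the scaling, median centring first and trimmed-mean scaling second: Canx -0.0437 and -0.0499, Hsp90ab1 -0.0229 and -0.0295, Hsp90b1 -0.0755 and -0.0817, Hspa1b -0.15 and -0.15, Hspb1 -0.13 and -0.14, Hyou1 -0.0092 and -0.0141, Pdia4 -0.11 and -0.12, Sdf2l1 -0.12 and -0.13. Over all 100 members, positive differences fell from 77 to 50 under median centring and to 51 under trimmed-mean scaling. Among the same named members, leaving out 1 library also turned the sign of Dnajb1 (-0.13 to 0.0484), Hspa1b (-0.0769 to 0.10), Hspa5 (-0.0054 to 0.41), Hspb1 (-0.0283 to 0.0707), Hyou1 (-0.0005 to 0.26), Pdia4 (-0.0789 to 0.15) and Sdf2l1 (-0.0805 to 0.15). None of these differences passed in the fit reported.

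The sources used here do not say whether the letters of the columns pair the samples. Deviations of libraries of the same letter correlated at -0.26 (A), 0.02 (B), 0.26 (D) and -0.15 (E), and only Lef1KI D correlated best with its own letter. With so few libraries these correlations cannot exclude a pairing. With the letter as a replicate block, over shared letters and so without Lef1KI C, 486 genes and 0 members passed (0 cytosolic and nuclear, 0 mitochondrial, 0 ER, 0 stress-signalling). In that fit Pdia5 had 0.96 (limma adjusted p 0.0785) and Dnajc21 0.50 (adjusted p 0.140). It used fewer libraries and more terms than the fit reported. With TPM alone, depth cannot be weighed.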
